A study of Mus musculus with 12 samples.

Results

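The 8 genes described here move bile acids through the cells of the ileum or sense them there: Slc10a2, Fabp6, Abcc2, Abcc3, Nr1h4, Nr0b2, Fgf15 and Gpbar1. They were chosen by name, with earlier results of these data known. Of these, 7 were found among the 18068 genes of the count table, 5 had enough counts to be tested, and Fabp6 was not analysed here. The libraries came from enteroids, cultures of intestinal epithelium without the underlying tissue, grown from the ileum of wild-type C57Bl/6 mice, and RNA was sequenced by a directional poly(A) protocol. There were 4 groups of 3 libraries: untreated enteroids, enteroids given butyrate (1 mM, 48 h), enteroids given IL-13 (20 ng/mL, 72 h) and enteroids given both agents at those doses and times. Butyrate is a short-chain fatty acid made by gut bacteria that inhibits histone deacetylases, and the cytokine IL-13, released in type 2 immune responses, signals through STAT6. Whether replicates were separate cultures or animals is not stated, so the p-values reflect the spread among these libraries only, and that spread may be technical.

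Bile acids are made in the liver, released into the duodenum and taken back up in the ileum. Slc10a2 (ASBT) carries them across the brush border, the cytosolic protein Fabp6 binds them, and the paired exporter Slc51a and Slc51b (OST alpha and beta) releases them toward the blood, while Abcc2 (MRP2) and Abcc3 (MRP3) export conjugated organic anions across the apical and the basolateral membrane. Inside the cell they activate the nuclear receptor Nr1h4 (FXR), which induces Fgf15, a hormone that lowers bile acid synthesis in the liver, as well as Nr0b2 (SHP), a repressor, and the Slc51 genes. Gpbar1 (TGR5) is a cell surface bile acid receptor. Slc51a and Slc51b, which the deposited table names Osta and Ostb, are not among the 8 genes and were followed beside them as the first of the other genes of the pathway.

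The 250 bases upstream of the RefSeq start (GRCm38.p6) are shown for the receptor Nr1h4 and for Slc51a, one of the genes it induces. Both genes rose with IL-13. The Nr1h4 window lies within that gene (89454234 to 89533585), so this RefSeq start is not at the gene's 5' end. Capitals mark the single repeat AGGTCA of nuclear receptor sites, which reads TGACCT where it lies on the other strand.
Nr1h4, chr10:89506659-89506908, minus strand: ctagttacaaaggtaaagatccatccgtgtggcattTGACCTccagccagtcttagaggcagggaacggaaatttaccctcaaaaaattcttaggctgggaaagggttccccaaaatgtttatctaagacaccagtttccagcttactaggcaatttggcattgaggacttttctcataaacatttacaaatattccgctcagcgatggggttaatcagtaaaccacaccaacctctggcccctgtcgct
Slc51a, chr16:32487880-32488129, minus strand: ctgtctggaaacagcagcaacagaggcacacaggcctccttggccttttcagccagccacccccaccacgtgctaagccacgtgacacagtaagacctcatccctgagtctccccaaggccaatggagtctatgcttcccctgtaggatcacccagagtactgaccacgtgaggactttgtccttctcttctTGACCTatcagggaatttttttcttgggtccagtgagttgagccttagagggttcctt

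The repeat lay at -214 to -209 from the start in Nr1h4 and at -58 to -53 in Slc51a. It was also in the windows of Abcc2 (-49 to -44) and Slc51b (-203 to -198), and not in those of Slc10a2, Fabp6, Nr0b2 or Gpbar1. In the gene annotation GENCODE M21, Abcc2 starts inside its window, and its match lies in the last 116 bases, past that start. Of 32851 promoter windows of the same length, 14% held the repeat on either strand. The inverted repeat of FXR sites (AGGTCA, any base, TGACCT, with at most 2 mismatches), which overlaps the single repeat, was in 0.96% of all windows. Of the 8 windows searched, those of 6 of the 8 genes and of the Slc51 pair, only that of Fabp6 held it, at -222 to -210 and at -142 to -130 (2 mismatches each). The spaced palindrome of STAT6 sites (TTC, any 4 bases, GAA) was in 5.85% of windows and in none of the 8. The motifs were picked with the results known, and a match describes letters only.

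The libraries held 13867982 to 24294456 counts, and the 6 libraries given IL-13 held 15618074 or fewer. Levels are CPM, each count relative to its library's total, scaled by TMM, a normalisation that discounts the few genes that take up a large share of a library, given as mean ± SD with n = 3. Fold changes are log2 ± standard error, and a gene was called at an edgeR adjusted p under 0.05 over all 13750 genes tested. The standard error was derived from the test, as the size of the log2 fold change over the square root of edgeR's F statistic. Butyrate replicate 2 and butyrate + IL-13 replicate 3 stood apart in Lars2, a mitochondrial tRNA synthetase, at 5048 and 6983 CPM, where the remaining 10 ranged from 422.8 to 1434 CPM. Epithelial markers were present throughout. The summed level of 7 mesenchymal markers stayed between 1.58 and 4.26 CPM and that of 5 endothelial markers between 1.06 and 3.50 CPM. The sums were 26.98 to 34.74 CPM for 6 immune markers and 2.23 to 16.02 CPM for 5 hepatocyte markers. Of 6 markers of the proximal small intestine, summing to 794 to 902 CPM untreated, the transcription factor Gata4 stood at 309 ± 17.5 CPM, lactase (Lct) at 160 ± 4.51 CPM and Pdx1 at 13.2 ± 2.59 CPM. Of the genes known from the ileum, Fgf15 stood at 165 ± 9.11 CPM and Slc10a2 at 6.16 ± 1.58 CPM.

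Per kilobase of exon, Fgf15 had the highest level of the 7 genes in untreated enteroids, at 54.03 ± 2.98 CPM per kb. Abcc3 (21.6 ± 1.43), Abcc2 (18.4 ± 0.904) and Nr1h4 (12.4 ± 1.20 CPM per kb) followed, and Slc10a2 was lower at 1.48 ± 0.381 CPM per kb. No neighbours in this order overlapped between libraries. In each treated group Abcc2 stood above Abcc3, the reverse of the untreated order. With IL-13 the 3 libraries ranged from 33.5 to 38.6 CPM per kb for Abcc2 and 24.1 to 25.8 for Abcc3. With both agents the ranges were 38.35 to 50.48 and 29.37 to 30.42. With butyrate they were close, at 25.53 to 27.77 and 21.45 to 25.51. Gene lengths were taken from GENCODE M21, which extends some of these genes beyond the deposited coordinates, so levels between genes are approximate.

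**Figure D1:**
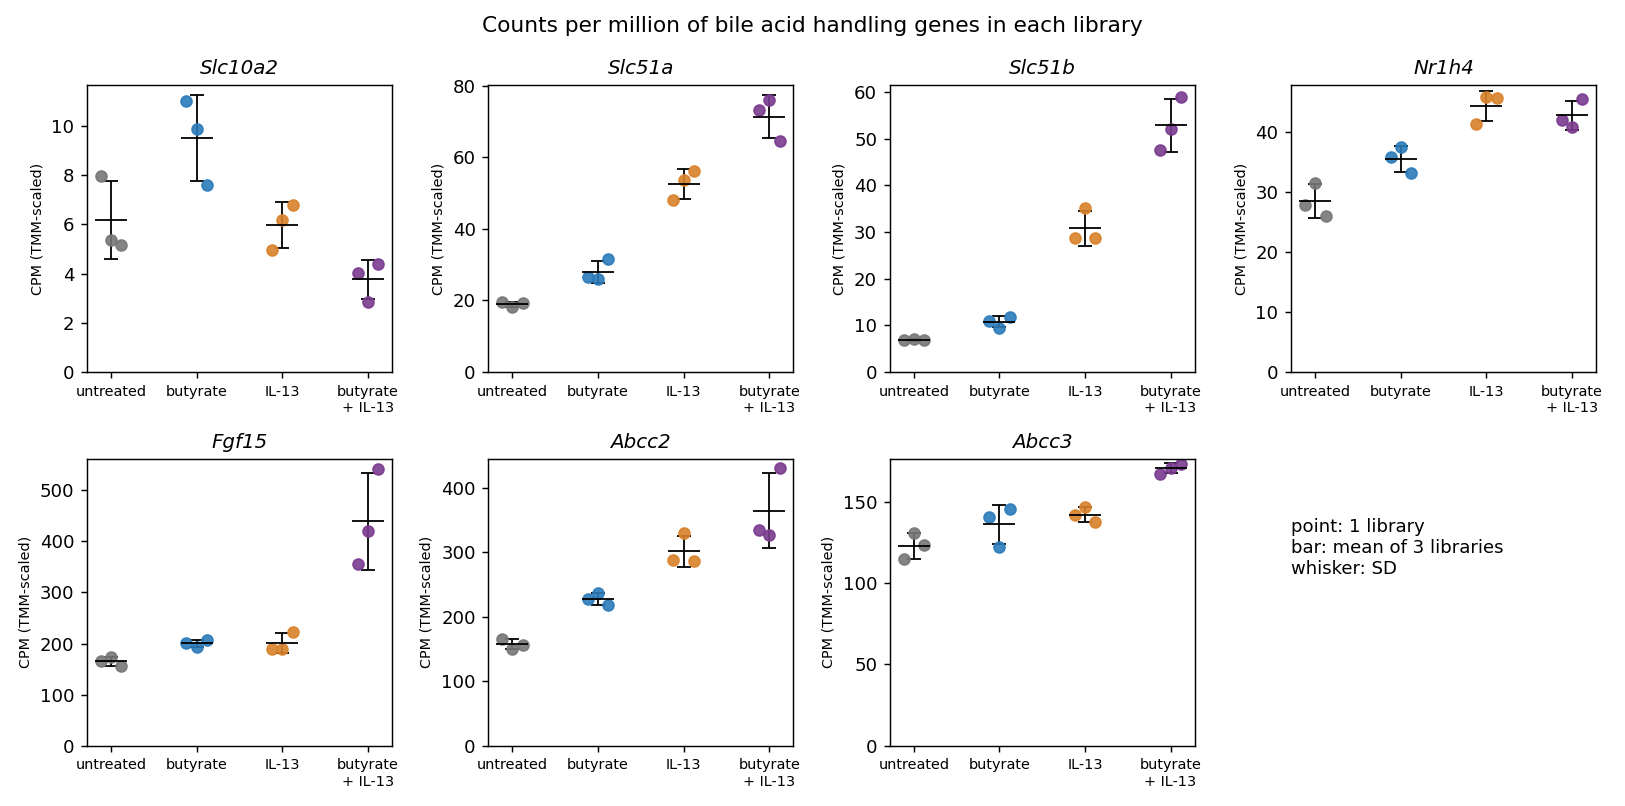
TMM-scaled CPM (vertical axes, from 0) of the 5 tested genes and the exporter pair Slc51a and Slc51b in each of the 12 libraries, by group; points are libraries, bars the mean of 3 and whiskers the SD. Slc10a2 is lowest in the group given both agents, where Fgf15, Abcc2, Abcc3, Slc51a and Slc51b are highest.

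The effect of each agent alone was read against untreated enteroids. With IL-13, Nr1h4, Abcc2 and Abcc3 rose, none of the 5 tested genes fell, and the median log2 fold change of the 5 was 0.28 (-0.01 over all genes tested). These 3 of 5 stand beside 21.8% of all genes called higher, 21.7% called lower and 43.5% called either way. The libraries did not overlap for 4 of the 5, all but Slc10a2, beside 59.3% of all genes. With butyrate only Abcc2 rose, and the median of the 5 was 0.32 (-0.01 over all genes); in that comparison 5.14% of all genes were called higher, 2.76% lower and 7.9% either way. The butyrate and untreated libraries did not overlap for 3 of the 5 (Nr1h4, Fgf15 and Abcc2), beside 27% of all genes. The summed level of 20 absorptive enterocyte markers moved with these results, from 8080 to 9011 CPM untreated to 11910 to 12090 CPM with butyrate and 11460 to 12540 CPM with IL-13. With IL-13, 11 of the 20 rose, among them the glucose carrier Slc5a1 (1790 ± 151 to 3331 ± 170 CPM), 2 fell (Fabp2, -1.89 ± 0.13 on the log2 scale, and Lct, -1.24 ± 0.19) and 7 were not called; with butyrate 9 rose and 1, Fabp2, fell, a call lost without butyrate replicate 1 (edgeR adjusted p = 0.0702) or 2 (0.0534) or untreated replicate 2 (0.0958) or 3 (0.0856). All 10 proliferation markers fell with IL-13, from a sum of 867 to 894 CPM untreated to 294 to 396 CPM, and 5 of 8 stem cell markers did, from 959 to 1079 CPM to 568 to 624 CPM; with butyrate those sums were 750 to 838 CPM and 813 to 1044 CPM. The part of these markers in the results was not tested. In bulk RNA, more cells of a type and more RNA per cell cannot be told apart.

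The importer Slc10a2 (ENSMUSG00000023073, chromosome 8, 5085623 to 5105232, mm10) was scarce. It measured 7.99, 5.35 and 5.15 CPM in the untreated libraries, 11.03, 9.88 and 7.59 CPM with butyrate, 4.98, 6.18 and 6.81 CPM with IL-13, and 4.03, 2.87 and 4.39 CPM with both agents. The group given both agents lay below each of the other groups without overlap, and the butyrate and untreated groups overlapped in 1 library each.

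IL-13 alone gave Slc10a2 a log2 fold change of -0.05 ± 0.22 (edgeR adjusted p = 0.89), and the sign turned without untreated replicate 1 (0.19) or IL-13 replicate 1 (0.07). Butyrate alone gave 0.62 ± 0.21 (edgeR adjusted p = 0.074), which was not called, although it was in DESeq2 (adjusted p = 0.0499) and without untreated replicate 1 (0.026) or butyrate replicate 3 (0.027). In enteroids that had butyrate, IL-13 lowered Slc10a2, from 9.5 ± 1.75 CPM down to 3.76 ± 0.796 CPM (-1.34 ± 0.23 on the log2 scale, edgeR adjusted p = 9.6e-05), a call that held under all 20 alternatives tried. Added to IL-13, butyrate gave -0.67 ± 0.24 (edgeR adjusted p = 0.055; 0.0206 to 0.185 over the alternatives). Both agents against untreated gave -0.71 ± 0.23 (edgeR adjusted p = 0.013), a call that ended without untreated replicate 1 (-0.48, 0.097) or butyrate + IL-13 replicate 2 (-0.55, 0.071).

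The sign of the butyrate difference in Slc10a2 was thus positive without IL-13 and negative with it. The test of that difference between differences, the interaction, gave -1.29 ± 0.32 with an unadjusted p of 0.00069 and an edgeR adjusted p of 0.066, which did not pass. It did pass in DESeq2 (adjusted p = 0.015), with no filter (0.028), with library totals alone (0.044) and without untreated replicate 1 (0.04) or butyrate replicate 3 (0.022). Over its 19 alternatives the adjusted p ran from 0.0152 to 0.199. The gene had 36 to 282 counts per library, which limits its precision.

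The exporter pair rose in every comparison. Slc51b (ENSMUSG00000053862, chromosome 9, 65412753 to 65422773) measured 6.77, 7.09 and 6.82 CPM untreated, 11.03, 9.52 and 11.8 CPM with butyrate, 28.6, 35.08 and 28.6 CPM with IL-13 and 47.6, 52.01 and 58.9 CPM with both. No group overlapped another. Its log2 fold change was 2.16 ± 0.13 for IL-13 over untreated (edgeR adjusted p = 3.7e-10), 0.65 ± 0.13 for butyrate over untreated (0.0046), 0.78 ± 0.12 for butyrate added to IL-13 (0.00014) and 2.94 ± 0.13 for both agents over untreated (2.3e-12). Slc51a (ENSMUSG00000035699, chromosome 16, 32475522 to 32487879) went from 18.97 ± 0.662 CPM untreated to 28 ± 3.12 with butyrate, 52.5 ± 4.17 with IL-13 and 71.3 ± 5.96 CPM with both, and all 5 comparisons between groups were called. The interaction was not called for either (Slc51a -0.12 ± 0.15, edgeR adjusted p = 0.88; Slc51b 0.13 ± 0.18, 0.89). Each Slc51 gene overlaps a gene on the opposite strand in exon sequence, Slc51a with Pcyt1a and Slc51b with Rasl12, and the sources used here do not say whether counting used strand.

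Among the conjugate exporters, Abcc2 (ENSMUSG00000025194, chromosome 19, 43782192 to 43837951) rose with each agent. It measured 165, 150 and 156 CPM untreated, 227, 237 and 218 CPM with butyrate, 288, 329 and 286 CPM with IL-13 and 335, 327 and 431 CPM with both. Untreated, butyrate and IL-13 libraries formed separate ranges in that order, and the IL-13 and combined groups overlapped. The log2 fold change was 0.94 ± 0.10 for IL-13 (edgeR adjusted p = 5.5e-07) and 0.53 ± 0.10 for butyrate (0.002), both called under all 20 alternatives. Butyrate added to IL-13 gave 0.28 ± 0.10 (edgeR adjusted p = 0.054), which 8 of the 20 alternatives called, among them DESeq2 (0.024) and the fits without butyrate + IL-13 replicate 1 (0.025) or 2 (0.028) or IL-13 replicate 2 (0.045). The interaction was -0.26 ± 0.14 (edgeR adjusted p = 0.55).

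Abcc3 (ENSMUSG00000020865, chromosome 11, 94343295 to 94392997), the basolateral exporter, had the smallest change of the 5 tested genes between both agents and untreated. It went from 123 ± 8.15 CPM untreated to 136 ± 12.2 with butyrate, 142 ± 4.8 with IL-13 and 170.5 ± 3.02 CPM with both. The 3 libraries given both agents (167, 171 and 173 CPM) lay above the other 9. Its rise with IL-13 (0.21 ± 0.08, edgeR adjusted p = 0.048) was lost in 11 of 20 alternatives. They include the replicate block (adjusted p = 0.064), library totals alone (0.71, at a log2 fold change of 0.04) and the fits without IL-13 replicate 1 (0.092), 2 (0.15) or 3 (0.068), untreated replicate 1 (0.18) or 3 (0.10), butyrate replicate 1 (0.064) or butyrate + IL-13 replicate 2 (0.055). Butyrate added to IL-13 gave 0.26 ± 0.08 (edgeR adjusted p = 0.028), lost in 6 of 20 alternatives: library totals alone (0.23), leaving out any 1 IL-13 library (0.073, 0.053 and 0.106 for replicates 1, 2 and 3) and leaving out replicate 2 (0.059) or 3 (0.056) of butyrate + IL-13. IL-13 added to butyrate gave 0.33 ± 0.08 (edgeR adjusted p = 0.0031), lost with library totals alone (0.32). Both agents over untreated gave 0.47 ± 0.08 (edgeR adjusted p = 7.8e-05), lost with library totals alone (0.061). In the authors' deposited table, the IL-13 comparison gave Abcc3 a log2 fold change of 0.21 with an FDR of 0.0104.

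**Figure D2:**
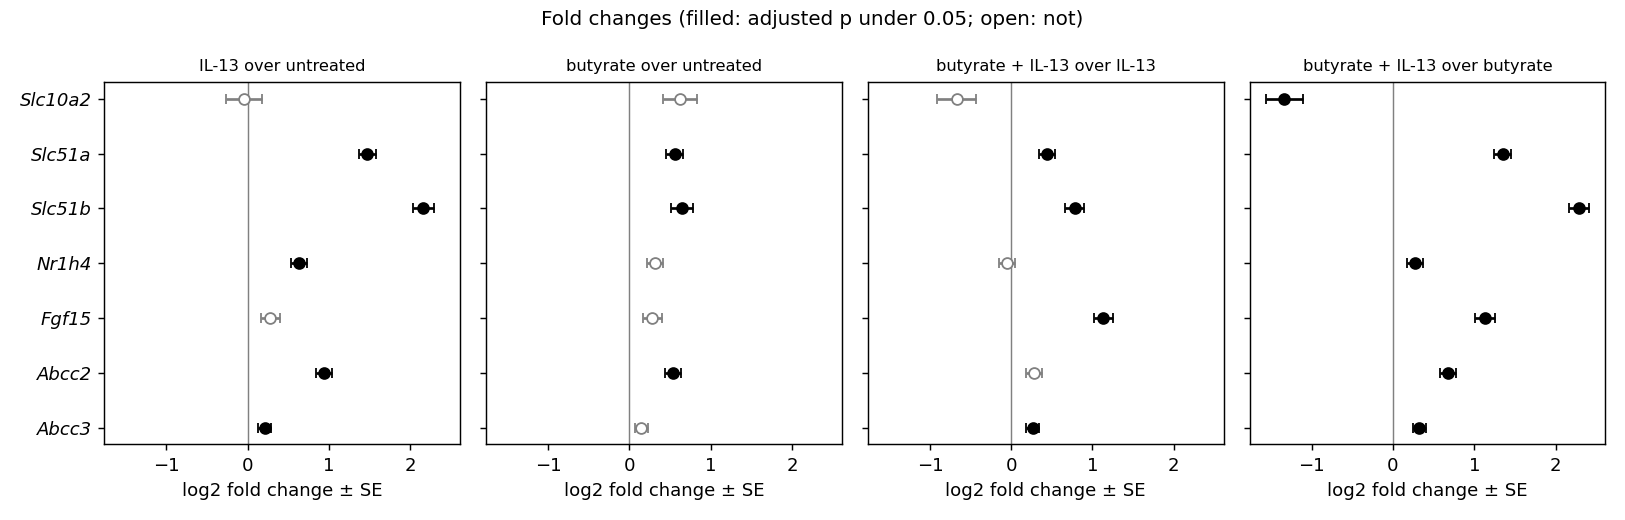
Log2 fold change ± standard error (horizontal axis) of the 5 tested genes and the exporter pair in 4 comparisons from the edgeR fit of all 12 libraries; filled points have an adjusted p under 0.05. Slc51a and Slc51b lie to the right in every panel, and Slc10a2 lies to the left wherever butyrate and IL-13 are combined.

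The receptor Nr1h4 (ENSMUSG00000047638, chromosome 10, 89454234 to 89533585) rose with IL-13. It measured 27.9, 31.5 and 26.05 CPM untreated, 35.9, 37.5 and 33.2 CPM with butyrate, 41.4, 45.8 and 45.6 CPM with IL-13 and 41.9, 40.9 and 45.5 CPM with both. The untreated libraries were the lowest, the butyrate libraries came next, and the 2 groups given IL-13 overlapped. The log2 fold change was 0.63 ± 0.10 for IL-13 (edgeR adjusted p = 4.7e-05) and 0.59 ± 0.10 for both agents over untreated (6.2e-05), both called under all 20 alternatives. Butyrate alone gave 0.32 ± 0.10 (edgeR adjusted p = 0.055), which DESeq2 called (0.022), as did leaving out butyrate + IL-13 replicate 3 (0.045) or replicate 3 of butyrate (0.032), and butyrate added to IL-13 gave -0.05 ± 0.10 (0.77). IL-13 in butyrate-treated enteroids gave 0.27 ± 0.10 (edgeR adjusted p = 0.033), a call lost in 7 of 20 alternatives, namely library totals alone (0.77, at a log2 fold change of 0.04), no filter (0.056), only those groups (0.061), both Lars2-high libraries left out (0.084) and single libraries left out (0.085 for butyrate + IL-13 replicate 3, 0.072 and 0.092 for replicates 1 and 3 of butyrate).

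The hormone gene Fgf15 (ENSMUSG00000031073, chromosome 7, 144896532 to 144900953) showed the one called interaction among the 5 tested genes; 0.865% of all genes were called for it, 0.255% as higher and 0.611% as lower. Fgf15 measured 165, 174.5 and 156 CPM untreated, 202, 193.5 and 206 CPM with butyrate, 189.7, 188.6 and 223.5 CPM with IL-13, and 355, 420.3 and 542 CPM with both agents. The single-agent groups overlapped each other and lay just above the untreated one, and every library given both lay well above all others. The log2 fold change was 0.28 ± 0.12 for IL-13 and 0.28 ± 0.12 for butyrate (edgeR adjusted p = 0.061 and 0.17), against 1.41 ± 0.12 for both over untreated (1.2e-08). Butyrate added to IL-13 gave 1.13 ± 0.12 (edgeR adjusted p = 4.1e-06) and IL-13 added to butyrate 1.13 ± 0.12 (3.3e-07), and these calls held under all 20 alternatives. Butyrate alone was called for Fgf15 in a fit of only those groups (edgeR adjusted p = 0.0465) and without both Lars2-high libraries (0.044).

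The interaction of Fgf15 was 0.85 ± 0.17 (edgeR adjusted p = 0.018), a 1.805-fold higher level with both agents than the product of the 2 single changes. The call ended without butyrate replicate 1 (0.055), IL-13 replicate 1 (0.059), IL-13 replicate 2 (0.0625) or untreated replicate 2 (0.0623), with log2 values of 0.81 to 0.86 in those fits. The highest Fgf15 value came from butyrate + IL-13 replicate 3, which was also highest in absorptive enterocyte markers (18990 CPM summed, against 13730 and 13790 in the other 2 libraries of its group) and in Lars2. Their part in the result was not tested. Without that library and butyrate replicate 2 the interaction was 0.65 on the log2 scale (edgeR adjusted p = 0.022). For IL-13 alone, the authors' deposited table gave Fgf15 an FDR of 0.00124 at a log2 fold change of 0.29; a fit of only those groups also called it (edgeR adjusted p = 0.0023), and so did the fits without butyrate + IL-13 replicate 1 (0.018), butyrate + IL-13 replicate 3 (0.0125), butyrate replicate 2 (0.0493) or both Lars2-high libraries (0.0092). Fgf15 overlaps the antisense genes Gm26793 and Gm39119 in exon sequence, whose reads could not be told apart from it if counting ignored strand.

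**Figure D3:**
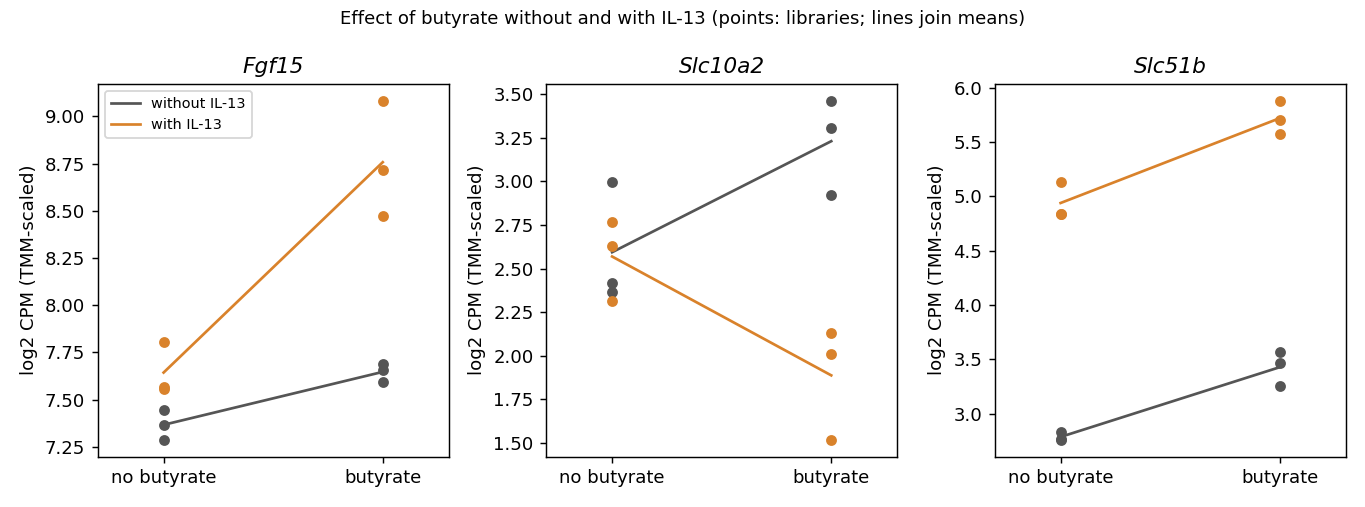
Log2 CPM (vertical axes) of Fgf15, Slc10a2 and Slc51b without and with butyrate (horizontal axis), in enteroids without IL-13 (grey) and with it (orange); points are libraries and lines join group means. The Fgf15 lines spread apart with butyrate (interaction 0.85 on the log2 scale). The Slc10a2 lines start close together and part with butyrate, rising without IL-13 and falling with it (-1.29, not called). The Slc51b lines run nearly parallel (0.13).

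Nr0b2, the repressor that FXR induces, and the membrane receptor Gpbar1 were at the limit of detection and were not tested. Nr0b2 had 28 counts in all, 7 over the untreated libraries, 17 with butyrate, 1 with IL-13 and 3 with both. Its highest library was butyrate replicate 3 with 9 counts, and untreated replicate 1 had 6 of the 7 untreated counts. Gpbar1 had 7 counts, of which 1 was untreated, 1 with butyrate, 5 with IL-13 and 0 with both agents. Of the 5 counts with IL-13, 4 came from replicate 2. In the group given both agents, 3 counts, or 0.0772 CPM over the group, would be the limit that a count of 0 allows. Gpbar1 is known from enteroendocrine cells, and the summed level of 15 markers of those cells was 1218 to 1632 CPM untreated, 556 to 678.5 CPM with butyrate, 1512 to 1643 CPM with IL-13 and 220 to 422 CPM with both. The authors' deposited table gave Nr0b2 an FDR of 0.617 and Gpbar1 an FDR of 0.406 for IL-13.

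When the group given both agents was compared with the single agents, IL-13 in the presence of butyrate raised 4 of the 5 tested genes and lowered Slc10a2, beside 22.9% of all genes called higher, 24.9% called lower and 47.7% called either way, and all 5 did not overlap, as did 50.4% of all genes. Against untreated enteroids the same 4 were higher and Slc10a2 lower, beside 28.2% and 31.5% of all genes (59.7% either way), again with no overlap for the 5, beside 66.2% of all genes. Butyrate in the presence of IL-13 raised 2 of the 5, Fgf15 and Abcc3, beside 9.85% of all genes, and lowered none, beside 11.3% (21.2% either way). The libraries did not overlap for 3 of the 5, Slc10a2, Fgf15 and Abcc3, beside 36.9% of all genes. These comparisons share groups and are not independent of each other. The absorptive enterocyte sum was 13730 to 18990 CPM in the combined group, above every other library.

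In a wider list of transporters, none of those tested rose with IL-13 beside the Slc51 pair. In a separate list of the Abcc family, given under Other observations, Abcc1 and Abcc8 were called higher with IL-13. The Abcc8 call was lost in some alternatives. The counts of the lists that follow stand beside 21.8% of all genes called higher and 21.7% called lower with IL-13, and 5.14% and 2.76% with butyrate. Of 9 tested in a list of 11 transporters, IL-13 raised Slc51a and Slc51b and lowered 5, with a median of -0.35: the drug exporter Abcb1a (109 ± 9.03 to 51.6 ± 4.4 CPM, edgeR adjusted p = 4.3e-07), the sterol exporter partners Abcg5 and Abcg8 (-0.46 ± 0.09 and -0.61 ± 0.11), Abcg2 and Abcc4. The calls of Abcc4 and Abcg2 were lost without untreated replicate 1 (0.06 and 0.071), and also without IL-13 replicate 1 for Abcc4 (0.09) and without IL-13 replicate 2 for Abcg2 (0.055). With butyrate, the Slc51 genes rose and the organic anion carrier Slco2b1 fell from 58.1 ± 2.55 to 44.45 ± 5.44 CPM (edgeR adjusted p = 0.015), a call that ended without butyrate replicate 1 (0.11) or untreated replicate 2 (0.087) and in a fit of only those groups (0.053). The liver uptake and export genes Slc10a1 and Abcb11 had too few counts to be tested.

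Of 15 tested nuclear receptors and transcription factors linked to these genes, IL-13 lowered 7 and raised 1, with a median of -0.13. Nr5a2 (LRH-1), a partner of FXR signalling that Nr0b2 represses, fell from 19.9 ± 0.881 to 5.77 ± 1.385 CPM (-1.78 ± 0.19 on the log2 scale, edgeR adjusted p = 5.3e-07). Ppara, a fatty acid receptor, fell from 15.2 ± 2.19 to 7.33 ± 1.68 CPM and Vdr, the vitamin D receptor that also binds lithocholic acid, from 381 ± 10.9 to 252.5 ± 10.9 CPM. With butyrate only Vdr was called, lower at 313 ± 22.7 CPM (edgeR adjusted p = 0.026), which was lost in a fit of only those groups (0.071) and without butyrate replicate 1 (0.16) or any 1 untreated library (0.066 to 0.097). Nr3c1, the glucocorticoid receptor, fell by 0.31 ± 0.11 on the log2 scale (edgeR adjusted p = 0.032), a call lost without IL-13 replicate 1 (0.091) or 2 (0.11) or untreated replicate 1 (0.12) or 2 (0.072). Hnf4a, an enterocyte and hepatocyte factor, was the 1 that rose, by 0.20 ± 0.07 (edgeR adjusted p = 0.032), and this was lost with library totals alone (0.03, adjusted p = 0.76), with no filter (0.071) and without IL-13 replicate 2 (0.095) or 3 (0.105) or untreated replicate 2 (0.089) or 3 (0.118). The receptor partner Rxra was higher when butyrate was added to IL-13 (187 ± 6.82 to 232 ± 14.9 CPM, edgeR adjusted p = 0.013), a call lost with library totals alone (0.10) and without butyrate + IL-13 replicate 3 (0.051) or IL-13 replicate 1 (0.059). A related partner, Rxrb, fell with IL-13 (83.85 ± 6.59 to 65.6 ± 2.74 CPM, edgeR adjusted p = 0.0048), a call that held under all 20 alternatives. The xenobiotic receptors Nr1i2 (PXR) and Nr1i3 (CAR), which also sense bile acids, were not called in any of the 6 comparisons.

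In a list of 8 genes known to respond to FXR, which includes the Slc51 pair, IL-13 raised 4 and lowered 2 (median 0.19), and butyrate raised the Slc51 pair alone (median 0.09). Beside the Slc51 pair, IL-13 raised Sdc1, a heparan sulfate proteoglycan (0.25 ± 0.08, edgeR adjusted p = 0.014), and the cytokine gene Il18 (0.51 ± 0.18, 0.024). Each call was lost in 3 of 20 alternatives: Sdc1 with library totals alone (0.40) and without IL-13 replicate 3 (0.087) or untreated replicate 2 (0.051), and Il18 with library totals alone (0.105) and without IL-13 replicate 1 (0.15) or untreated replicate 3 (0.12). Nos2, which makes nitric oxide, was 1 of those that fell with IL-13, from 4.215 ± 0.84 to 0.986 ± 0.5835 CPM (edgeR adjusted p = 9.2e-05), and Car12, a carbonic anhydrase, the other. Among 9 tested enzymes of bile acid synthesis, IL-13 raised 1, Acox2, and lowered 2, Cyp2c70 and Scp2, with a median of -0.12, and 6 were not called. Scp2, a peroxisomal thiolase and sterol carrier, went from 20.1 ± 1.83 to 16.1 ± 0.657 CPM (edgeR adjusted p = 0.038), a call lost in 8 of 20 alternatives: the replicate block (0.053), no filter (0.052) and the fits without any 1 IL-13 library (0.055 to 0.109), untreated replicate 1 (0.091) or 2 (0.15) or butyrate replicate 1 (0.051). Cyp2c70, which makes muricholic acids in the mouse, fell with IL-13 (6.28 ± 0.751 to 0.466 ± 0.0962 CPM, edgeR adjusted p = 3.1e-07) and with butyrate (0.954 ± 0.316 CPM, edgeR adjusted p = 3.1e-05), and Acox2, a peroxisomal oxidase of side chain shortening, rose with IL-13 (11.9 ± 1.31 to 23.8 ± 1.49 CPM, edgeR adjusted p = 1.9e-05) and with butyrate (22.7 ± 4.33 CPM, edgeR adjusted p = 0.000299).

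Of 13 tested enzymes that modify bile acids and drugs, 7 were lower and 3 higher with IL-13, with a median of -0.53. Cyp2b10, a cytochrome P450 enzyme regulated by CAR, fell by 1.79 ± 0.18 on the log2 scale (edgeR adjusted p = 3.4e-07), and the glutathione transferase Gsta4 from 285 ± 23 to 137 ± 14.3 CPM (edgeR adjusted p = 4e-07). Sult2b1, a sterol sulfotransferase, rose from 20.7 ± 2.62 to 57.3 ± 3.46 CPM (edgeR adjusted p = 1.4e-07). With butyrate 2 of the 13 rose, Cyp3a13 (226 ± 24.3 to 367 ± 26.3 CPM, edgeR adjusted p = 0.00046) and the sulfotransferase Sult1b1, and the glutathione transferase Gstm1 fell. The Sult1b1 call (0.38 ± 0.11, edgeR adjusted p = 0.046) was lost in 13 of 20 alternatives (0.0036 to 0.18 over all), among them the replicate block (0.057), library totals alone (0.087) and the fits without any 1 untreated (0.061 to 0.18) or IL-13 library (0.062 to 0.068) or butyrate replicate 1 (0.11) or 2 (0.18).

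**Figure D4:**
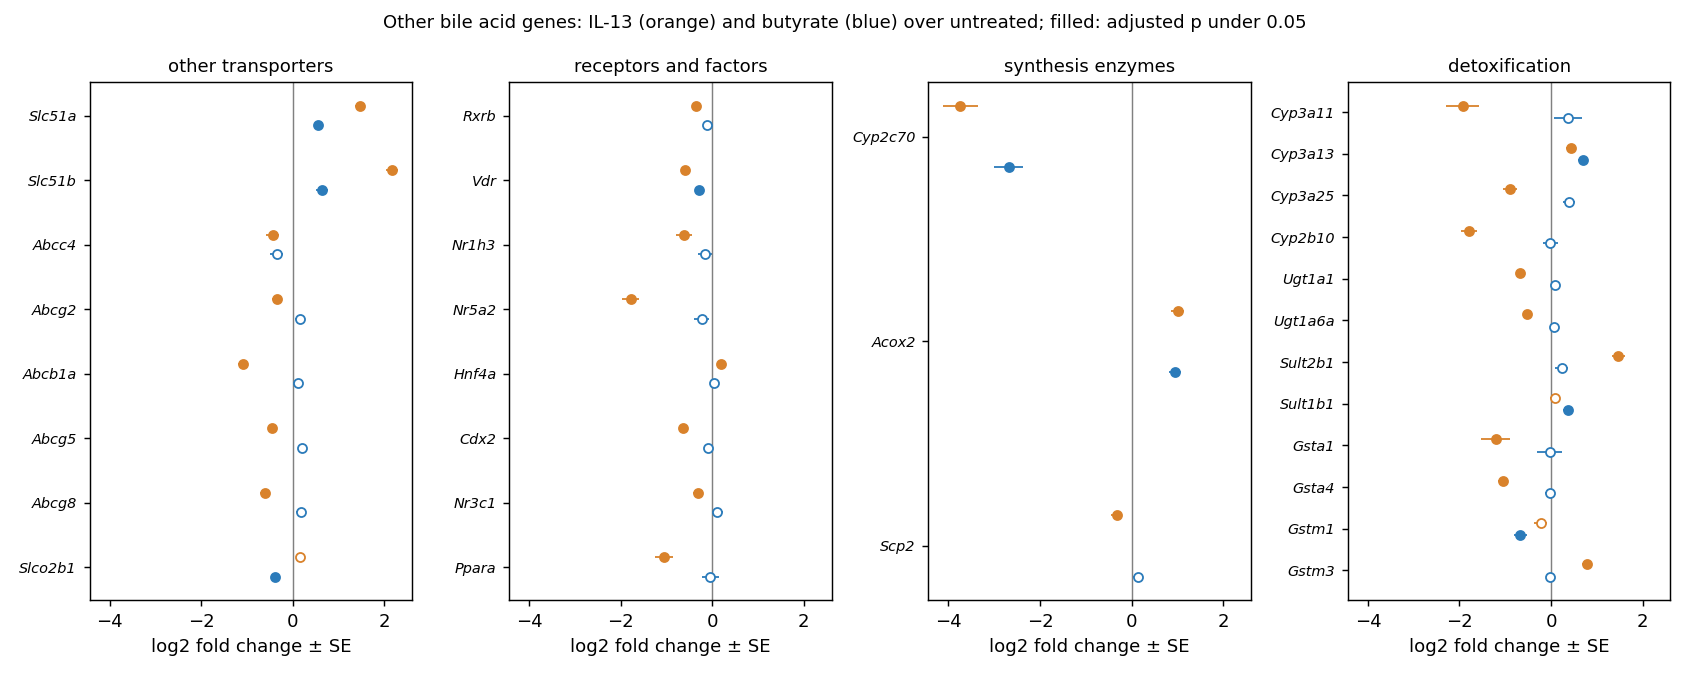
Log2 fold change ± standard error (horizontal axes) of the other bile acid genes called in at least 1 of the comparisons shown, for IL-13 over untreated (orange) and butyrate over untreated (blue), by role; filled points have an adjusted p under 0.05. Slc51a and Slc51b stand to the right among the transporters with IL-13, and Cyp2c70 lies farthest to the left.

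The genes nearest to each tested gene in pattern were found by the root mean square difference of centred log2 CPM over the 12 libraries among 10734 genes. For Abcc3 they were Camk2n1 (0.05), Saraf and Epcam, for Nr1h4 they were Nid1 (0.09), Ets2 and Ralgapa1, and for Abcc2 Themis3 (0.10), Plxna2 and Iqgap2. For Fgf15 they were Kyat1 (0.19), Celf5 and Plpp3, against a spread of 0.55 in Fgf15 itself, and for Slc10a2 Rps23 (0.23) and Amd1, against 0.52.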

How the data were processed

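The deposited table held raw read counts per gene for 12 libraries, and the authors' DESeq results for untreated against IL-13 libraries: a p-value, an FDR and a log2 fold change. Per the file headers only genes whose corrected p fell below 1 in it were listed, and its 18092 rows each had a count in untreated or IL-13 libraries. The genome was mm10, per the submitters' processing notes, and the sources used here name no aligner, counter or strand setting. Columns headed US were taken as untreated.

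Rows of 1 symbol were summed, which gave 18068 genes, and 98.4% of rows matched GENCODE M21, which gave current symbols and exon lengths. All 12 libraries entered 1 edgeR 4.0.16 fit (R 4.3.3; glmQLFit, robust; TMM; filterByExpr, which kept 13750 genes), with a coefficient per group and Benjamini-Hochberg adjustment. Replicates of a group were distinct libraries: the chi-square of their counts over its degrees of freedom was 3.9 to 37.7. The script was tested on simulated data. Alternatives were RLE scaling, library totals alone, DESeq2 1.42.0, no filter, a mean of at least 50 counts, a replicate block, a fit restricted to the groups being compared and each library left out; leaving out both Lars2-high libraries was added after seeing the data. Named were the 8 genes, up to 2 called genes with the smallest adjusted p per list, direction and comparison, every gene of the transporter, receptor and FXR lists, and the 3 genes nearest in pattern to each (mean of at least 50 counts, prior count 2, no predicted genes); Lct and Lars2 were chosen after their values were seen. Values of 1 listed factor and 1 gene near in pattern are not reported here. Members and lists were chosen with earlier results of these data known. Promoter windows are RefSeq's. Tables and plots used Python 3.11.15, pandas 2.3.3 and matplotlib 3.10.9.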

Additional observations from a re-analysis of the deposited data

Results flagged for a closer look

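The effect of butyrate on Fgf15 differed between enteroids without and with IL-13 by the test of the interaction (log2 0.85 ± 0.17, edgeR adjusted p = 0.018, 0.000308 to 0.0625 over the alternatives). Fgf15 was the only one of the 5 tested genes called there, and Slc10a2, at -1.29 ± 0.32, missed the threshold.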

How the results depend on the processing

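Of 595 alternative values for the 5 tested genes, 530 kept their direction and side of the threshold, 32 lost a call, 31 gained one and 2 turned sign, both Slc10a2 for IL-13 over untreated (-0.05 in all libraries; 0.07 without IL-13 replicate 1, 0.19 without untreated replicate 1, and from -0.15 without untreated replicate 3 to 0.19 over single libraries left out). The number of the 5 called moved with single libraries: from 3 to between 2 and 4 for IL-13, from 1 to between 1 and 3 for butyrate, from 2 to between 1 and 4 for butyrate added to IL-13, from 5 to between 4 and 5 for IL-13 added to butyrate and for both over untreated, and from 1 to between 0 and 2 for the interaction. DESeq2 called 3 for butyrate, 4 for butyrate added to IL-13 and 2 for the interaction, no filter 4 and 2 for the last 2, library totals alone 3 for IL-13 added to butyrate and 2 for the interaction, and the fit of only the groups compared and leaving out both Lars2-high libraries 2 each for butyrate. Over all genes, calls ranged over libraries left out from 559 to 1395 for butyrate (1086 with all libraries; 559 without untreated replicate 3, 607 without untreated replicate 2, 624 without butyrate replicate 1), from 1935 (without butyrate + IL-13 replicate 3) to 3451 for butyrate added to IL-13 (2912) and from 55 (without untreated replicate 2) to 213 (without butyrate replicate 3) for the interaction (119; 265 in DESeq2), where only butyrate replicate 2 and butyrate + IL-13 replicate 2 moved the count by less than 1.5 times. The cause was not tested. Library totals alone shifted the median gene to -0.18 (IL-13), -0.08 (butyrate), -0.14 (butyrate added to IL-13), -0.27 (IL-13 added to butyrate) and -0.34 (both over untreated), and moved the share of calls that were higher from 50.1% to 28.2%, 65.1% to 47.02%, 46.5% to 19.7%, 47.9% to 22.6% and 47.2% to 23.9% in that order. Scaling moves the genes of a comparison together, so the place of Abcc3 and Hnf4a relative to the median gene was no test of their calls. The replicate block ended the Abcc3 call for IL-13, leaving 2 of the 5 called, and changed no other call among them (of the other named genes, Abcg2 and Nr3c1 lost theirs for IL-13 added to butyrate, at adjusted p of 0.0508 and 0.0513, Scp2 for IL-13 at 0.0531 and Sult1b1 for butyrate at 0.0568); same-numbered libraries did not deviate together (correlations from -0.318 to 0.234, 3 of 12 libraries correlating best with their own number), so the numbers were not treated as pairs. Of 2531 alternative values for results called in 40 other named genes, 124 lost the call and 0 turned sign. Counts under about 10 per library left Nr0b2 and Gpbar1 untestable.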

Other observations

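Other transporters of the Abcc family went both ways with IL-13. Of 6 tested, Abcc1 (MRP1) was higher at 105 ± 1.14 CPM against 68.1 ± 0.792 CPM untreated (edgeR adjusted p = 6.4e-06) and so was Abcc8, while Abcc6, at 1.905 ± 0.564 against 9.08 ± 1.54 CPM (edgeR adjusted p = 4.6e-07), and Abcc4 were lower, and the median of the 6 was -0.13 on the log2 scale. With butyrate edgeR called 0 of these 6, of which Abcc4 and Abcc8 had an unadjusted p under 0.05 (0.0196 and 0.0328). Of 6 tested genes around Fgf15 signalling and secretion, IL-13 lowered Sort1 (-0.36 ± 0.08, edgeR adjusted p = 0.0012) and Fgfr2 (-0.37 ± 0.12, edgeR adjusted p = 0.0205) and raised none. The Abcc8 call (1.05 ± 0.39, edgeR adjusted p = 0.038) was lost in 6 of 19 alternatives: library totals alone (0.076) and the fits without any 1 IL-13 library (0.07 to 0.11) or untreated replicate 1 (0.17) or 2 (0.15). The Fgfr2 call was lost without IL-13 replicate 1 (0.085) or untreated replicate 2 (0.094) or 3 (0.0604).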
